A study of Mus musculus with 20 samples.

Results

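This comparison set dysplastic against non-dysplastic mouse gastric organoids within p53 knockout (KO) lines. Its members were chosen by the title numbers: the 6 libraries of lines 794 and 801 against the 4 libraries of lines 650 and 1270, which are 10 of the 20 libraries and 4 of the 8 lines of the series. Gastric organoids are hollow or folded balls of stomach epithelium that grow in culture. All lines were on the BL/6 background and were grown in conditioned medium. RNA-seq libraries for mRNA used 100 ng of total RNA each. Lines 794 and 801 were labelled dysplastic with p53 knocked out in vivo, line 650 was labelled non-dysplastic with p53 knocked out in vivo, and line 1270 was labelled non-dysplastic with p53 knocked out ex vivo. Each mode of KO among the non-dysplastic lines therefore rests on 1 line, and only line 650 shares its mode of KO with the dysplastic lines. Line 650 differs from them in sex, as given below. The sources used here name no allele or Cre driver for the KO and do not say how dysplasia was scored. The labels do not say that the lines came from separate animals, so the spread between lines may be technical. P-values from counts summed per line measure that spread. Those from single libraries (limma-voom) also draw on the spread between libraries of a line. The 4 wild-type (WT) lines, dysplastic 565 and 752 and non-dysplastic 300 and 1269, entered the fits so that all 8 lines shared an estimate of the spread.

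The p53 protein, encoded by Trp53, is a transcription factor that halts the cell cycle or starts cell death after DNA damage. Dysplasia is a disordered growth and shape of epithelial cells that can precede carcinoma. In the stomach, epithelial cells also express genes that respond to interferon, through proteins of the STAT and IRF families, and genes that neutralise foreign chemicals, through factors such as NRF2 and the pregnane X receptor.

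Trp53 overlapped between the arms. It measured 6.26, 4.43 and 11.4 CPM (counts relative to library size, with size scaled by the trimmed mean of M values) in the 3 libraries of line 794, 24.3, 20.7 and 18.1 in line 801, 22.7 and 32.8 in line 650, and 5.87 and 4.46 in line 1270. Within each arm 1 line was near 5 CPM and 1 above 20, so the arms overlapped, with means of 14.6 ± 10.8 CPM for the dysplastic lines and 15.96 ± 15.5 CPM for the others (SD, n = 2 lines each). The 4 WT lines measured 112 to 161 CPM.

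All 10 libraries had high levels of epithelial genes, with Epcam at 560 CPM or more and Cdh1 at 813 CPM or more. The T cell gene Cd3g and the macrophage genes Emr1, Lyz2 and Tyrobp had no count in any of them. Other immune cell genes did have counts over the 10 libraries. These were 66 for Ptprc, 46 for Csf1r, 19 for Itgam, 5 for Cd3e, 2660 for Cd68 and 9946 for Cd14. The KO libraries held 5.67e6 to 16.3e6 counts, and the line sums 23.4e6 to 36.1e6. A shift set 3 of the 10 libraries apart, in that 650-2, 794-3 and 801-3 read shorter transcripts more strongly than the other libraries of their line. The Spearman correlation of a gene's deviation from its line mean with transcript length was -0.49, -0.5 and -0.66 in these libraries, across 10425 genes. Both arms hold such a library, and 3 of the WT libraries did the same. Line 650 was male and the other 3 KO lines female, judged by Ddx3y at 24.4 and 22.8 CPM in line 650 and at most 0.085 CPM elsewhere.

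Counts were summed per line for edgeR and DESeq2, with the line as the unit of replication. With 2 lines against 2, edgeR's quasi-likelihood test called 0 of 13476 genes higher (0%) and 0 lower (0%) at an adjusted p of 0.05. At an unadjusted p under 0.05 it counted 1016 genes, and its smallest adjusted p was 0.533. DESeq2 on the same line sums called 133 genes higher in dysplastic KO (0.987% of all genes) and 64 lower (0.475%). Limma-voom on single libraries, with the line as a correlated block (correlation 0.22), called 190 higher (1.41%) and 55 lower (0.408%). Both of these further tests called 81 genes higher and 29 lower. In 340 genes (2.52%) all 6 dysplastic libraries lay above all 4 non-dysplastic ones, and in 192 genes (1.42%) all 6 lay below. Such genes are called separated below. Calls below are those of DESeq2 or limma-voom, named each time, and log2 fold changes are edgeR's. A log2 fold change is written ± its standard error (SE), and in brackets a value with ± and no unit is a log2 fold change.

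These counts depend on single lines and libraries. Without the shifted libraries, limma-voom called 62 higher and 18 lower, and 2567 genes were separated in place of 532. Separation is easier with fewer libraries, and the part of the shift itself in this rise was not tested. The 133 genes called higher by DESeq2 became 18 without line 1270 and 24 without line 794, of which 15 and 14 were among the 133. They became 610 without line 650, 345 when line 801 was dropped, 264 without library 650-2, 305 without the 6 shifted libraries of the series and 308 with the sex of the line as a covariate. Among genes called lower, the count of 64 fell to 12 when line 794 was dropped, 13 when 1270 was, 37 when 565 was and 36 when 752 was. Dropping line 801 gave 291, dropping 650 or 1269 gave 119 each, and dropping 300 gave 115. Without library 1270-1 they were 23, without 650-1 they were 25, without 1270-2 they were 104, without 650-2 they were 179 and without the shifted libraries 163. With the sex covariate edgeR called 1 gene, Pitx1, a homeobox factor whose values are given below.

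Against the in vivo line 650 alone, edgeR called 0 genes (477 at an unadjusted p under 0.05) and limma-voom called 0 (1003 unadjusted). DESeq2 called 19 genes higher (0.141%) and 15 lower (0.111%). Line 650 is a single line, and its spread was taken from the other groups. It is also the only male KO line, so dysplasia and sex cannot be told apart in this contrast of KO lines. Against the ex vivo line 1270 alone, edgeR again called 0 (1571 unadjusted, smallest adjusted p 0.0547), while DESeq2 called 607 genes higher (4.5%) and 115 lower (0.853%). Separation from line 650 alone was seen for 770 genes higher (5.71%) and 527 lower (3.91%). Of these, 430 and 335 were not separated in that direction from line 1270.

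The DESeq2 differences kept their direction, and most had a log2 fold change of at least 1 in size, when line 650 was the only baseline. All 133 genes called higher against both lines had a log2 fold change above 0 against line 650. In 120 of them (90.2%) it was at least 1, against 6.88% of all genes. Their median log2 fold change was 2.18 against line 650 and 2.98 against line 1270, and 98 of them were separated from line 650. All 64 called lower were also below line 650, 43 of them (67.2%) by a log2 fold change of 1 or more, against 3.52% of all genes. Their medians were -1.16 against line 650 and -1.38 against line 1270, and 40 were separated from line 650. In 104 of the 133 and 42 of the 64 the difference was larger against line 1270 than against line 650. These genes were chosen by a contrast that includes line 650, so these shares describe them and test nothing. DESeq2 called 16 of the 133 and 9 of the 64 against line 650 alone, and 110 and 49 against line 1270 alone.

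**Figure D1:**
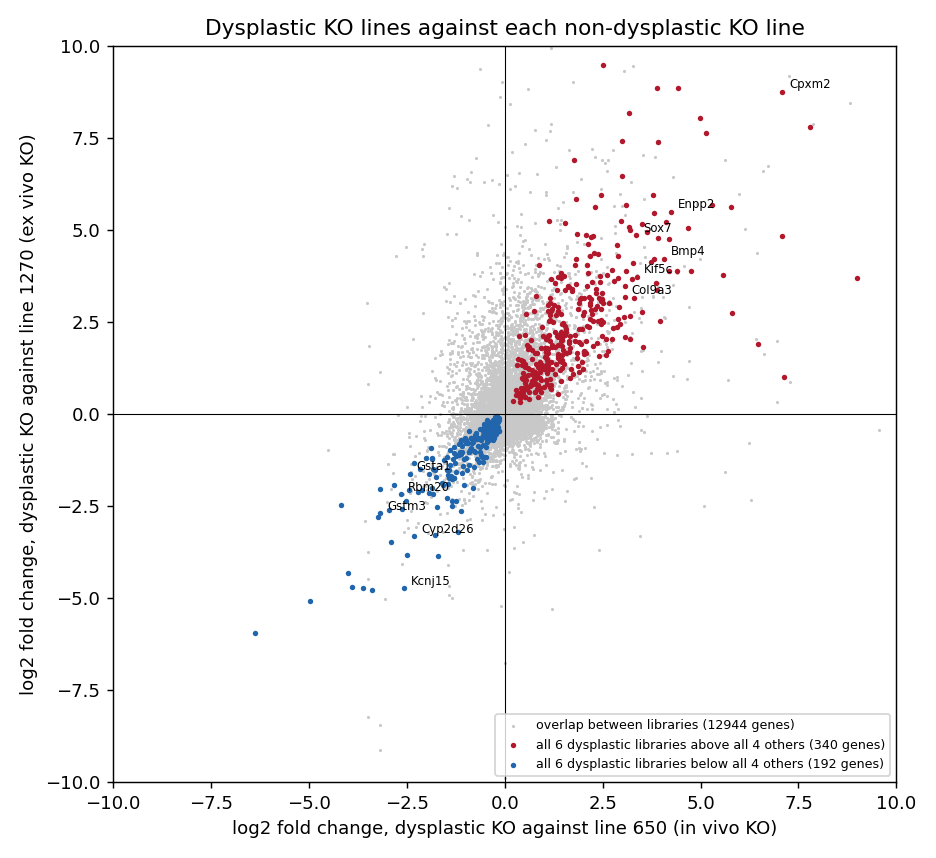
Log2 fold change of dysplastic KO against line 650 (x axis) and against line 1270 (y axis) for the 13476 genes tested, each point a gene. Red points are the 340 genes with all 6 dysplastic libraries above all 4 others and blue points the 192 with all 6 below, and both sets lie in the quadrants where the signs match, which separation fixes. Of the 13476 genes, 8 lie outside the axes, which end at 10.

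The 34 genes called against line 650 by DESeq2 were few enough to name, save 1. The 19 higher ones included Far2, Serpinb10, Crisp1, Enpp2, Tnfrsf19, Ifit1, Cp, Rsad2, Sox7, Col9a3, Stra6, Ckb, Antxr1, Dclk1, Cldn2, Podxl, Ldlrad3 and Nbl1. The 15 lower ones included 4 genes of the Y chromosome, Ddx3y, Uty, Kdm5d and Eif2s3y, as line 650 is the male line. The other 11 were Hsd17b11, Sytl2, Dcxr, Ckmt1, Malat1, Gyk, Iyd, Kctd14, Ddc, Gm3776 and Gsta1. Among these 34, Tnfrsf19, Antxr1, Nbl1, Dcxr, Kctd14 and the 4 Y-linked genes were not called when both non-dysplastic lines were the baseline. The count of 19 became 8 without line 794, 201 without 801, 56 without 1269 and 57 without 300. By library it was 12 when 794-1 was dropped, 32 for 794-3 and 108 for 650-2, and 87 when all shifted libraries were dropped. The count of 15 became 7 without line 794, 9 without 752, 218 without 801, 60 without 1269 and 57 without 300. By library it was 9 when 794-1 was dropped, 23 for 794-3 and 105 for 650-2, and 74 when all shifted libraries were dropped. Without line 1269 edgeR called 1 gene against line 650, the Y-linked Eif2s3y.

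The 12 leading higher genes by the naming rule included secreted factors, a matrix protein and a developmental transcription factor. Enpp2 encodes autotaxin, the secreted enzyme that makes the signalling lipid lysophosphatidic acid. It measured 100.1, 69.6 and 36.4 CPM in line 794, 24.4, 30.4 and 22.5 in line 801, 2.06 and 3.46 in line 650, and 2.08 and 0.357 in line 1270. Every dysplastic library lay above every non-dysplastic one, and the 2 dysplastic lines differed from each other as well. The means were 50.1 ± 32.8 and 1.87 ± 1.09 CPM (SD, n = 2 lines), a log2 fold change of 4.75 ± 0.68 against both lines and 4.24 ± 0.81 against line 650, with DESeq2 adjusted p = 7.24e-11 and 2.84e-06. Over the alternative fits, which left out each line or library in turn among others, the log2 fold change of Enpp2 was between 3.85 and 5.5.

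Cp encodes ceruloplasmin, a copper-carrying ferroxidase. It measured 132, 124 and 46.9 CPM in line 794, 121, 112 and 51.8 in line 801, 9.22 and 9.66 in line 650, and 2.3 and 3.63 in line 1270. The dysplastic lines had the same level, 108 and 106 CPM, and did not overlap the other lines. The log2 fold change was 4.13 ± 0.86 against both lines and 3.52 ± 1.00 against line 650 (DESeq2 adjusted p = 9.72e-06 and 0.00388). Sox7, a Sox family transcription factor, measured 25.1, 19.7 and 10.04 CPM in line 794, 8.9, 9.61 and 6.94 in line 801, 1.52 and 1.22 in line 650, and 0.446 and 0.536 in line 1270. Again the arms were apart, with a log2 fold change of 3.93 ± 0.64 and, against line 650, 3.35 ± 0.66 (DESeq2 adjusted p = 2.76e-07 and 0.000947).

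Col9a3, a chain of collagen IX, was more even between the dysplastic lines than Sox7. It measured 17, 11.3 and 6.84 CPM in line 794, 10.8, 6.38 and 7.11 in line 801, 1.07 and 1.52 in line 650, and 0.446 and 1.79 in line 1270. The arms did not overlap, and the log2 fold change was 3.12 ± 0.41 against both lines and 3.06 ± 0.57 against line 650 (DESeq2 adjusted p = 1.17e-08 and 0.000947). Serpinb11, of the clade B serpins, had line levels of 80.7 and 34.5 CPM in lines 794 and 801 against 4.12 and 1.29 CPM in lines 650 and 1270. DESeq2 called it against both lines (adjusted p = 0.000445) and not against line 650 alone (adjusted p = 0.0646).

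For several leading genes most of the difference lay in line 794. Bmp4, a ligand of the BMP family, measured 65.6, 44.6 and 44.4 CPM in line 794, 4.19, 5.02 and 7.62 in line 801, 1.9 and 1.52 in line 650, and 1.19 and 1.91 in line 1270. Both dysplastic lines were separated from the others, and the log2 fold change of 4.14 ± 1.03 (DESeq2 adjusted p = 0.000662) was 1.67 without line 794. The same held for Cpxm2, of the carboxypeptidase X family, at 7.76 with and 3.9 without line 794. Kif5c, a kinesin motor, went from 3.54 to 1.36, the galactosyltransferase gene B4galt4 from 3.85 to 2.04, and Car8, a carbonic anhydrase-related protein, from 3.45 to 1.87. DESeq2 called these 4 genes against both lines (adjusted p = 0.00726 to 0.0127) and none of them against line 650 alone (adjusted p = 0.308 to 0.395).

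**Figure D2:**
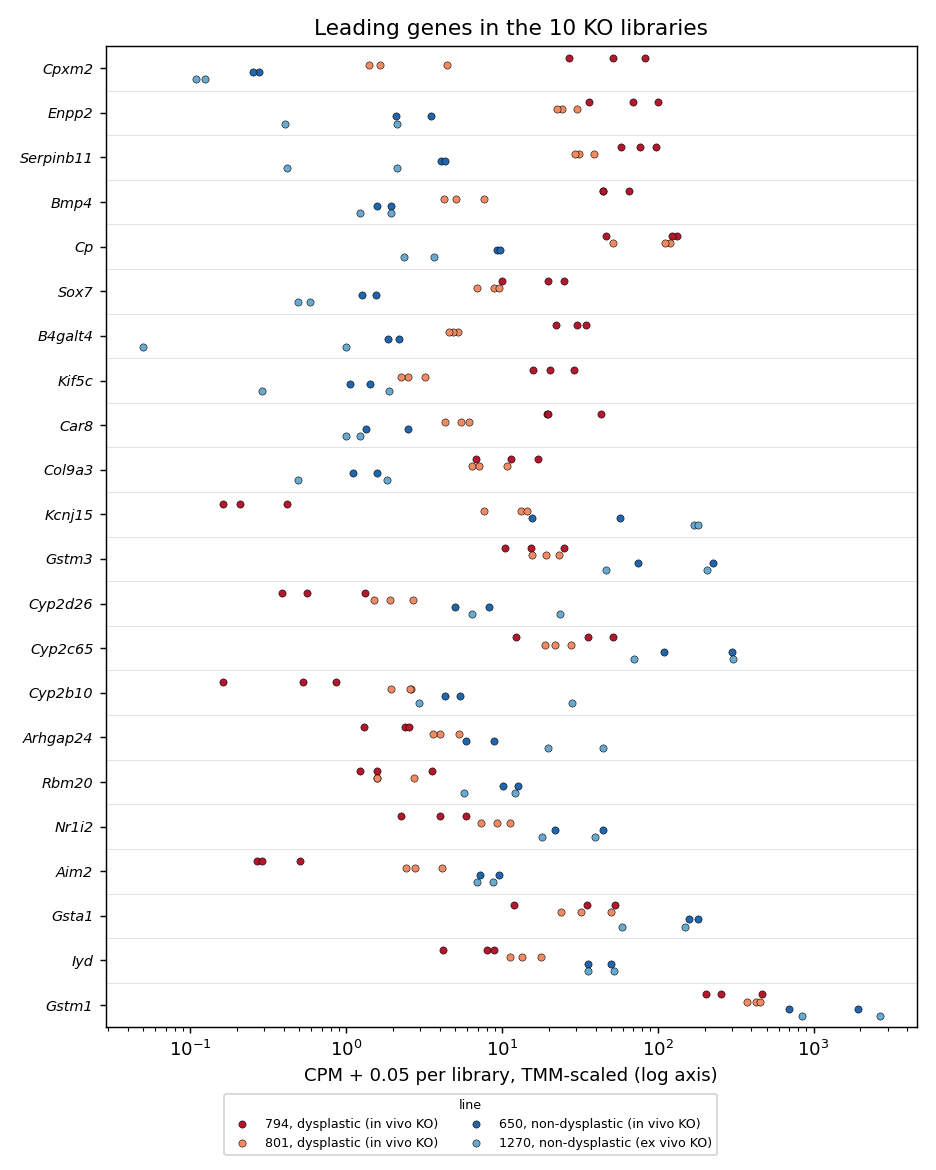
Levels of 22 of the 24 leading genes in each of the 10 KO libraries, as CPM + 0.05 on a log axis, coloured by line, each point a library. Enpp2 lies at 22.5 CPM or more in the 6 dysplastic libraries and at 3.46 or less in the other 4, and Iyd lies at 17.8 CPM or less against 35.8 or more.

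The 12 leading lower genes included glutathione S-transferases, cytochrome P450 genes and the receptor gene Nr1i2. Gsta1, a glutathione S-transferase, measured 12, 35 and 53 CPM in line 794, 23.8, 32.4 and 50.1 in line 801, 180.5 and 158 in line 650, and 149.8 and 59.3 in line 1270. The lowest non-dysplastic library, 1270-2, was just above the highest dysplastic one. The log2 fold change was -2.08 ± 0.51 against both lines and -2.43 ± 0.56 against line 650 (DESeq2 adjusted p = 0.00414 and 0.0103). Gstm1, a transferase of the mu class, measured 255, 466 and 205 CPM in line 794, 375, 428 and 455 in line 801, 1936 and 699 in line 650, and 2656 and 845 in line 1270, with a log2 fold change of -2.04 ± 0.63 (DESeq2 adjusted p = 0.0275). In each non-dysplastic line the library numbered 1 held over 2-fold more of it than the library numbered 2. Gstm3 was lower by -2.95 ± 0.90 (DESeq2 adjusted p = 0.0103). These genes have near-identical copies, so reads may have been shared among them.

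Nr1i2 encodes the pregnane X receptor, which switches on drug-metabolising enzymes. It measured 2.21, 5.88 and 3.99 CPM in line 794, 7.28, 9.27 and 11.3 in line 801, 44.9 and 21.9 in line 650, and 39.6 and 18.2 in line 1270. The arms did not overlap, and the log2 fold change was -2.26 ± 0.54 against both lines and -2.43 ± 0.65 against line 650 (DESeq2 adjusted p = 0.00443 and 0.0755). The cytochrome P450 genes Cyp2d26, Cyp2c65 and Cyp2b10 were lower by log2 fold changes of -2.90 ± 0.79, -2.79 ± 0.89 and -2.73 ± 0.78, with DESeq2 adjusted p = 0.0106, 0.0178 and 0.0211. None of these 3 was called against line 650 alone. For Cyp2b10 library 1270-1 was far above the rest, at 28.1 CPM against 2.92 to 5.33 in the other non-dysplastic libraries, and without it the log2 fold change was -1.45.

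Iyd, which removes iodine from iodotyrosines, was at nearly the same level in both non-dysplastic lines. It measured 4.13, 7.97 and 8.9 CPM in line 794, 13.5, 11.2 and 17.8 in line 801, 50.1 and 35.9 in line 650, and 52.2 and 35.8 in line 1270. The arms did not overlap, lines 650 and 1270 stood at 43.9 and 42.2 CPM, and the log2 fold change was -2.08 ± 0.38 and, against line 650, -2.10 ± 0.46 (DESeq2 adjusted p = 0.000174 and 0.0223). Rbm20, a splicing regulator, had 1.9 and 1.79 CPM in the dysplastic lines and 11.6 and 8.42 in the others, a log2 fold change of -2.43 ± 0.67 (DESeq2 adjusted p = 0.0191). Arhgap24, a GTPase-activating protein, was -2.52 ± 0.77 (DESeq2 adjusted p = 0.034) and -1.22 without line 1270. Limma-voom, and not DESeq2, called 2 further genes: Aim2, a sensor of cytosolic DNA, at 0.288 and 3.23 CPM in lines 794 and 801 against 8.15 and 7.54 (limma-voom adjusted p = 0.017), and the potassium channel gene Kcnj15 at 0.231 and 12.9 CPM against 39.1 and 174 (limma-voom adjusted p = 0.019).

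Over the list of NRF2 and glutathione genes, 27 of 32 tested members were lower in dysplastic KO and 5 higher, with a median log2 fold change of -0.60 against 0.02 over all genes. Of the 32, 7 were separated downward, beside 1.42% of all genes, and 0 upward. DESeq2 called 6 lower, beside 0.475% of all genes, and limma-voom 4. Of the 32, 14 were below line 650 by a log2 fold change of 1 or more, beside 3.52% of all genes. Separated downward from line 650 were 13, beside 3.91% of all genes. The difference was larger against line 650, where the median was -0.97, than against line 1270, where it was -0.30. The difference between these 2 baselines was not tested for the list. Gsta1 was the member called against line 650 alone. The count of 6 called became 1 without line 794 and 1 when 1270 was dropped. It was 2 without library 1270-1, 3 without 650-1 and 10 without 1270-2.

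Some members other than transferases were lower and a few were higher. Aldh1a1, which makes retinoic acid from retinal, measured 50.02, 79.1 and 79.3 CPM in line 794, 109, 105 and 102 in line 801, 221 and 192 in line 650, and 252 and 277 in line 1270. It was separated in every library, with a log2 fold change of -1.41 ± 0.29 (DESeq2 adjusted p = 0.00234, limma-voom adjusted p = 0.00363). Ptgr1, a prostaglandin reductase, was lower by -1.52 ± 0.34 and the aldo-keto reductase gene Akr1b8 by -0.85 ± 0.21 (DESeq2 adjusted p = 0.00219 and 0.0175). The classic NRF2 target Nqo1, named after its values were seen, overlapped through library 1270-2 and had a log2 fold change of -1.44 ± 0.52 (DESeq2 adjusted p = 0.142). Members that support glutathione synthesis and recycling were near 0, Gclc at -0.23 and Gsr at -0.03, and Hmox1 and Slc7a11 were higher, at 1.35 and 0.95, with no call by DESeq2 (adjusted p = 0.251 and 0.691). Both of these were high in libraries 794-1 and 794-2.

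Interferon-stimulated genes had the highest median of the lists examined against both lines and against line 650. Their list, like the others, was chosen with earlier results of these data known, so its counts are a description. All 41 tested members of the list had a log2 fold change above 0, against 52.3% of all genes, and their median was 1.63 against 0.02. Of these, 16 were separated upward, beside 2.52% of all genes, and 0 downward. DESeq2 called 21 higher, beside 0.987% of all genes, and limma-voom 10. The group held against line 650 alone, with 38 of 41 above 0 and a median of 1.73. Of the 41, 25 were at a log2 fold change of 1 or more there, beside 6.88% of all genes. Separated upward from line 650 were 18, beside 5.71% of all genes. DESeq2 called just Ifit1 and Rsad2 against line 650, beside 0.141% of all genes. Against line 1270 the median was 1.88, below the 2.26 of the mesenchymal list. The count of members called by DESeq2 was 1 when line 794 was dropped, 2 when 1270 was, 13 each when 565 or 752 was and 12 when library 650-1 was. It was 21 without the shifted libraries, and the members in these counts were not compared.

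Many interferon-stimulated genes are switched on through a short promoter element to which a complex of STAT and IRF proteins binds. A core of that element, GAAANNGAAA on either strand (TTTCNNTTTC on the opposite strand, overlapping matches allowed), was searched in RefSeq promoter windows of the build GRCm38.p6, which is not the build mm9 of the counts. Each window ran from 250 bases before to 50 bases after a start. It was found for 17 of the 30 list members with a window (56.7%), against 1079 of 27025 genes (3.99%). Members separated between the arms held it in 7 of 11 cases and the other tested members in 10 of 19. A match is a description of the sequence, not a bound site. The stretches of the 2 members named by rule that held it are shown with the cores in capitals, 5′ to 3′ on the gene's strand, Ifit1 from chr19:34640755-34640843 and Ifit3b (given as I830012O16Rik in the counts) from chr19:34607739-34607842, both on the plus strand. Isg15, chosen after its values were seen because its 3 cores overlap, is from chr4:156200845-156200926 on the minus strand.
Ifit1: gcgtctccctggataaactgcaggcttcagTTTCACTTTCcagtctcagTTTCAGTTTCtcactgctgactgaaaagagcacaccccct
Ifit3b: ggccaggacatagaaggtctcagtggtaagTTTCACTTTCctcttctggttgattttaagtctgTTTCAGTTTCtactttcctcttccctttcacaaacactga
Isg15: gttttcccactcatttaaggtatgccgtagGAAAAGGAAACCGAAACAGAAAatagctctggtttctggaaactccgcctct
The Ifit3b stretch is identical over its 104 bases to that of its neighbour Ifit3.

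Ifit1 binds foreign RNA that lacks the cap methylation of the host. It measured 20.6, 15.5 and 2.74 CPM in line 794, 8.16, 8.42 and 4.74 in line 801, 0.762 and 0.712 in line 650, and 0.371 and 1.67 in line 1270. The arms did not overlap, although library 794-3 was well below the other libraries of its line. The log2 fold change was 3.60 ± 0.50 against both lines, 3.89 ± 0.70 against line 650 and 3.36 ± 0.67 against line 1270 (DESeq2 adjusted p = 7.32e-08, 0.000336 and 0.000138). Ifit3b was scarcer, at 6.56, 3.62 and 1.03 CPM in line 794, 2.21, 3.32 and 2.03 in line 801, 0.381 and 0.305 in line 650, and 0 and 0.357 in line 1270. Its log2 fold change was 3.64 ± 0.58 against both lines and 3.27 ± 0.74 against line 650 (DESeq2 adjusted p = 0.000251 and 0.118). Ifit3 and Ifit3b are near-identical copies, so reads may have been shared between them.

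Rsad2, the antiviral enzyme viperin, overlapped by a small margin, since 794-3 had 2.17 CPM and 1270-2 had 2.26. Its line levels were 14.2 and 6.17 CPM in lines 794 and 801 against 0.911 and 1.39 in lines 650 and 1270, and its log2 fold change against line 650 was 3.48 ± 0.78 (DESeq2 adjusted p = 0.00701). Xaf1, an interferon-induced partner of the apoptosis inhibitor XIAP, measured 48, 29.2 and 8.78 CPM in line 794, 13.5, 14 and 13.5 in line 801, 3.96 and 6.51 in line 650, and 2.75 and 2.92 in line 1270. Rtp4, a transporter chaperone, measured 25.3, 17.2 and 8.55 CPM in line 794, 7.94, 5.78 and 5.25 in line 801, 1.37 and 3.46 in line 650, and 1.34 and 1.67 in line 1270. Both were separated, with log2 fold changes of 2.54 ± 0.50 and 2.74 ± 0.57 (DESeq2 adjusted p = 0.000367 and 0.00134).

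The size of the difference varied within the list, and the following members were named after their values were seen. Among the factors that carry the signal, Irf7 was higher by 2.83 ± 0.63 and Irf9 by 1.27 ± 0.29, both separated (DESeq2 adjusted p = 0.00186 and 0.0139). Isg15, a ubiquitin-like protein, measured 18.9, 7.49 and 6.96 CPM in line 794, 7.21, 6.63 and 9.98 in line 801, 0.99 and 3.96 in line 650, and 0.52 and 1.19 in line 1270. It was separated, at 2.64 ± 0.57 (DESeq2 adjusted p = 0.00186). The OAS enzyme gene Oas3 and the guanylate-binding protein gene Gbp3 had the largest values, 4.46 ± 0.98 and 4.36 ± 0.99, and Trim25 and Oasl1 had values of 0.02 and 0.04.

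In absolute terms the group overlapped. The summed level of the list ran from 960 to 2270 CPM over the dysplastic libraries and from 940 to 1480 CPM over the others, with 794-1 and 794-2 highest. Ly6e, an abundant interferon-inducible surface protein, is not in that list or its sum. It measured 1802, 1496 and 1280 CPM in line 794, 854, 656 and 812 in line 801, 533 and 652 in line 650, and 473 and 552 in line 1270. It was separated by a narrow margin, at 1.11 ± 0.31 (DESeq2 adjusted p = 0.0467). Ly6e belongs to the list of dysplasia and carcinoma antigens, of which 22 of 30 tested members were above 0. The median of that list was 0.28 against both lines and 0.07 against line 650. Markers of immune cells overlapped between the arms. The summed level of their list ran from 70.9 to 195 CPM in the dysplastic arm and from 69.8 to 130 CPM in the other. Cd14 and Cd68 carried it. Ptprc was at most 1.02 CPM and Csf1r at most 1.11 CPM, and Cd3g, Emr1, Lyz2 and Tyrobp had no count.

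**Figure D3:**
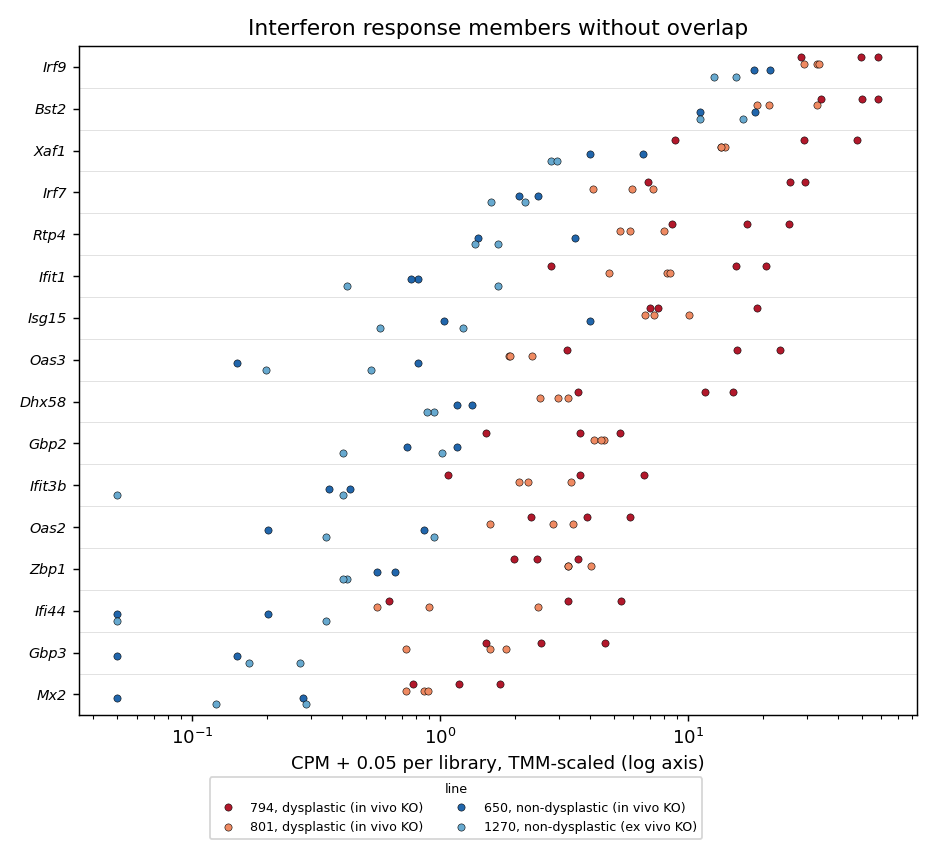
Levels of the 16 interferon-stimulated genes without overlap between the arms in each of the 10 KO libraries, as CPM + 0.05 on a log axis, coloured by line, each point a library. Ifit1 lies at 2.74 CPM or more in the 6 dysplastic libraries and at 1.67 or less in the other 4.

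Genes of antigen presentation were higher to a smaller extent. All 14 tested members of the class I list lay above 0, with a median log2 fold change of 0.70 against both lines and 0.46 against line 650. Of the 14, 3 were separated upward, beside 2.52% of all genes, and DESeq2 called 3 higher, beside 0.987% of all genes: Psmb8, H2-Q4 and Tap2. Psmb8, a catalytic subunit of the immunoproteasome, measured 4.27, 2.5 and 3.99 CPM in line 794, 3.24, 1.87 and 6.77 in line 801, 0.533 and 1.52 in line 650, and 0.371 and 0.595 in line 1270. It was higher in every dysplastic library, by 2.29 ± 0.50 (DESeq2 adjusted p = 0.0118). H2-Q4, a class I gene with near-identical copies, was higher by 1.26 ± 0.28 (DESeq2 adjusted p = 0.0127), and Nlrc5, the class I transactivator, was separated at 2.80 ± 1.07 but below 2 CPM everywhere (DESeq2 adjusted p = 0.397). B2m, the light chain of class I molecules, had a log2 fold change of 0.79 ± 0.27 with overlap (DESeq2 adjusted p = 0.207).

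All 5 tested class II members were also above 0, with a median of 1.3. Of the 5, 2 were separated upward, beside 2.52% of all genes, and DESeq2 called 1 higher, beside 0.987%. Cd74, the invariant chain that guides class II molecules, measured 14.2, 12.1 and 5.02 CPM in line 794, 12.9, 9.27 and 11 in line 801, 2.13 and 2.85 in line 650, and 1.56 and 1.13 in line 1270. The dysplastic lines had nearly equal levels, 11.1 and 11.4 CPM, and the log2 fold change was 2.60 ± 0.58 against both lines and 2.21 ± 0.71 against line 650 (DESeq2 adjusted p = 0.0012 and 0.173). H2-Ab1 was separated too, at 7.32 and 1.24 CPM in lines 794 and 801 against 0.781 and 0.0648, and was not called (DESeq2 adjusted p = 0.193).

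Several genes of cell signalling were higher against each baseline. Of 19 Wnt targets 18 were above 0 against both lines, beside 52.3% of all genes, and 19 against line 650. Their medians were 0.80 and 0.97, beside 0.02 and 0.03 over all genes. Of the 19, 2 were separated upward, beside 2.52% of all genes, and DESeq2 called 1 higher, beside 0.987%. Apcdd1, a membrane inhibitor of Wnt signalling, measured 13.3, 7.73 and 10.2 CPM in line 794, 3.16, 3.57 and 2.88 in line 801, 1.07 and 1.02 in line 650, and 0.52 and 0.417 in line 1270. It was separated and was the Wnt target called against both lines (3.22 ± 0.75, DESeq2 adjusted p = 0.00488). Tcf7, a transcription factor of the pathway, was separated at 1.46 ± 0.42 (DESeq2 adjusted p = 0.0682). The summed level of the Wnt list lay at 1200 to 2420 CPM in the 6 dysplastic libraries and at 1020 to 1160 CPM in the other 4.

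In the list of EGF receptors, ligands and feedback genes, 16 of 20 were above 0, with a median of 0.81 against both lines and 0.62 against line 650. DESeq2 called 2 higher, beside 0.987% of all genes: the feedback inhibitor Spry4 and the ETS factor Etv5, both named after their values were seen. Spry4 was 27.9 CPM in line 794 and 2.38 in line 801, beside 1.26 and 0.777 in lines 650 and 1270 (3.90 ± 1.08, DESeq2 adjusted p = 0.00527). Both overlapped between the arms, and the feedback gene Spry2 did not, at 27.2 and 21.4 CPM against 15.2 and 13.7 (0.75 ± 0.22, limma-voom adjusted p = 0.0464). Among 20 immediate early genes 17 were above 0, with a median of 0.59 and, against line 650, 0.23. Of the 20, 3 were separated upward, beside 2.52% of all genes, and DESeq2 called 2 higher, beside 0.987%. Nr4a1, an orphan nuclear receptor induced within the first response to growth factors, measured 55.8, 36.3 and 25 CPM in line 794, 34.8, 27.5 and 19.5 in line 801, 12.8 and 15.2 in line 650, and 13.1 and 11.2 in line 1270. The arms were apart (1.47 ± 0.29, DESeq2 adjusted p = 0.00234), as they were for Egr3 (3.44 ± 0.90, DESeq2 adjusted p = 0.0174) and, without a call, for Fosb (1.38 ± 0.61, DESeq2 adjusted p = 0.552).

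Single genes of other functions also differed. Stra6, the receptor that takes up vitamin A from its carrier in blood, measured 517, 251 and 132 CPM in line 794, 274, 198 and 117 in line 801, 26.7 and 41.7 in line 650, and 15.8 and 67.5 in line 1270. It was separated, with 2.83 ± 0.46 against both lines and 3.05 ± 0.64 against line 650 (DESeq2 adjusted p = 2.76e-07 and 5.44e-05). Of the rest of the retinoid list, Aldh1a1 was lower, as given above, and the list's median was 0.17. Cldn2, a claudin that forms cation pores, measured 344, 303 and 123 CPM in line 794, 242, 198 and 128 in line 801, 35.2 and 59 in line 650, and 95.7 and 71.6 in line 1270. The arms did not overlap (1.94 ± 0.43, and 2.42 ± 0.52 against line 650, DESeq2 adjusted p = 0.00191 and 0.000695). Cldn18, the claudin of the gastric barrier, went the other way in every library, at 826 and 838 CPM against 1220 and 1229 (-0.56 ± 0.15, DESeq2 adjusted p = 0.00109), though it was not called against line 650 (DESeq2 adjusted p = 0.235).

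Cdkn2a encodes the cell-cycle brakes p16 and p19ARF, of which the latter normally stabilises p53. It measured 259, 236 and 391 CPM in line 794, 92.2, 112 and 216 in line 801, 48.1 and 86.2 in line 650, and 58.7 and 61 in line 1270. The arms were separated, by 1.74 ± 0.37 against both lines and 1.68 ± 0.51 against line 650 (DESeq2 adjusted p = 0.00219 and 0.108). It was the member called by DESeq2 among 12 CDK inhibitors and other brakes, beside 0.987% of all genes called higher, and the list's median was 0.27.

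Markers of gastric cell types held few called genes, beside 0.987% of all genes called higher by DESeq2 and 0.475% called lower. In these bulk libraries fewer cells of a type and less RNA per cell cannot be told apart. Of the parietal cell list, which holds creatine kinases, 5 of 14 were above 0. Ckb, the brain-type creatine kinase, measured 259, 117 and 116 CPM in line 794, 68.2, 48.8 and 54.5 in line 801, 9.75 and 23.1 in line 650, and 9.43 and 21 in line 1270, and was separated (2.90 ± 0.56, and 2.91 ± 0.80 against line 650, DESeq2 adjusted p = 2.93e-05 and 0.00701). The mitochondrial creatine kinase Ckmt1 was lower, at 246 and 264 CPM against 546 and 463 (-0.98 ± 0.19, DESeq2 adjusted p = 0.000662), and so was carbonic anhydrase 2, Car2, at 754 CPM in both dysplastic lines against 1868 and 1752 (-1.26 ± 0.46), which was separated and not called (DESeq2 adjusted p = 0.159). Of 9 chief cell genes 2 were above 0, and of 13 pit cell genes 4. The summed pit cell level overlapped, at 4010 to 13900 CPM in the dysplastic libraries and 2920 to 8850 CPM in the others. Gkn1, a pit cell gene given below, was highest in line 794. The pit cell gene Psca, named after its values were seen, was the one called, at 71.7 and 54 CPM against 123 and 238 (-1.52 ± 0.33, DESeq2 adjusted p = 0.00392), and it overlapped through library 794-3.

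The tuft cell list had 9 of 11 members above 0 with a median of 0.63, beside 52.3% and 0.02 over all genes. Dclk1, a doublecortin-like kinase used as a tuft cell marker, measured 79.3, 67.9 and 28.3 CPM in line 794, 44, 50.2 and 21.3 in line 801, 11.1 and 8.13 in line 650, and 2.75 and 5.83 in line 1270. It was separated, by 2.90 ± 0.42 against both lines and 2.43 ± 0.36 against line 650 (DESeq2 adjusted p = 3.81e-08 and 2.84e-06). No other tuft cell gene was called, and the separated Alox5ap did not exceed 1.25 CPM. Among 20 genes of intestinal metaplasia 9 were above 0 and none was called by DESeq2, with Cdh17, an intestinal cadherin, separated upward at 3.78 and 2.45 CPM against 0.998 and 0.777, and Fabp1, a fatty acid carrier, separated downward but at most 1.04 CPM.

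**Figure D4:**
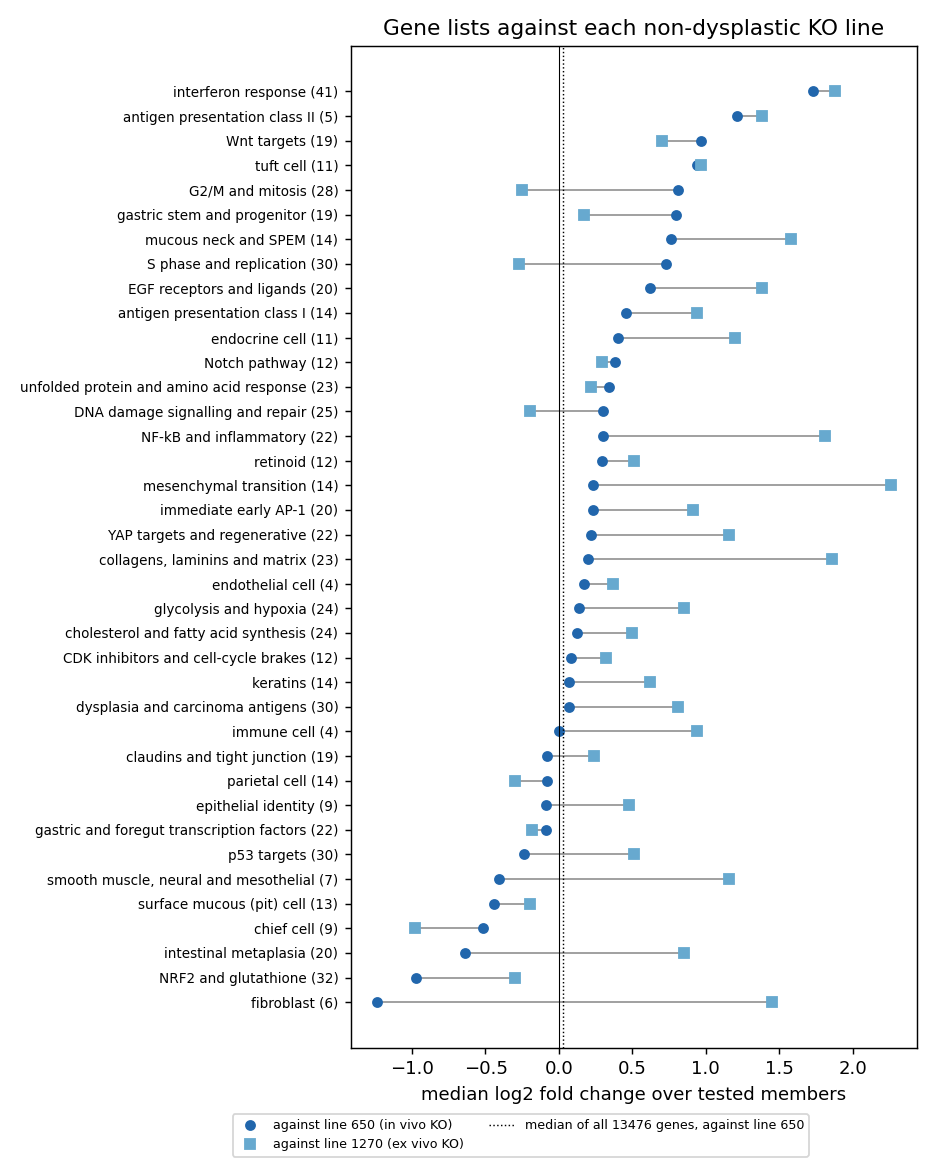
Median log2 fold change of dysplastic KO over the tested members of each gene list, against line 650 (circles) and against line 1270 (squares), with the number of members in brackets and a dotted line at the median of all 13476 genes against line 650. The interferon list lies at 1.73 and 1.88, whereas the G2/M list lies at 0.81 and -0.25 and the mesenchymal list at 0.23 and 2.26.

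Some gene lists differed in sign or size between the baselines. All 28 G2/M and mitosis genes were above line 650, with a median of 0.81 against 0.03 over all genes, and 14 of them were separated from it, beside 5.71% of all genes, but just 3 were above line 1270, where the median was -0.25. The 30 S phase genes behaved alike, with 30 above line 650, 1 above line 1270 and medians of 0.73 and -0.27. The libraries of line 1270 differed here. The G2/M list summed to 2780 CPM in 1270-1 and 5420 in 1270-2, beside 2600 to 3880 in the dysplastic libraries. For S phase these were 1830 and 3590, beside 1540 to 2500. Library 1270-1 thus lay within the dysplastic range for both lists, and 1270-2 above it. No member of either list was called against line 650 or against both lines. Top2a, the topoisomerase that untangles chromosomes before mitosis, measured 482, 399 and 320.3 CPM in line 794, 457, 465 and 211 in line 801, 192 and 248 in line 650, and 328 and 648 in line 1270. The dysplastic lines lay between the 2 non-dysplastic ones, at 412 and 422 CPM against 215 and 495 (0.23 ± 0.47, DESeq2 adjusted p = 1). Mki67, a marker of dividing cells, likewise had 287 and 336 CPM against 200.1 and 484.

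The p53 target list showed the reverse, with 10 of 30 above line 650 (median -0.24), 24 above line 1270 (median 0.51) and none separated from both. DESeq2 called 1 member against line 650, Dcxr, a carbonyl reductase, at -1.05 ± 0.20 (adjusted p = 0.0168). Cdkn1a, the classic p53-induced inhibitor of cyclin-dependent kinases, named after its values were seen, was at 211 and 95.8 CPM in lines 794 and 801, 196 in line 650 and 32.1 in line 1270. Its log2 fold change was -0.35 ± 0.54 against line 650 and 2.26 ± 0.61 against line 1270 (DESeq2 adjusted p = 1 and 0.00149). Residual Trp53 reads were also fewer in line 1270 than in line 650, as given above, and their part in this was not tested.

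Mesenchymal and matrix genes lay farther above line 1270 than above line 650, a difference that was not tested. The median of 14 mesenchymal genes was 0.23 against line 650 and 2.26 against line 1270, and that of 23 collagens, laminins and other matrix genes 0.20 and 1.86. Of the 14 mesenchymal genes, 2 were separated upward from both lines, beside 2.52% of all genes, namely Pdpn and Fstl1. No member of either list was called against line 650 by DESeq2. Pdpn, the membrane glycoprotein podoplanin, measured 12, 9.1 and 26.7 CPM in line 794, 7.5, 9.19 and 14.1 in line 801, 1.83 and 4.78 in line 650, and 2.75 and 2.32 in line 1270 (2.13 ± 0.39, and 1.98 ± 0.52 against line 650, DESeq2 adjusted p = 0.000174 and 0.091). Fstl1, a secreted follistatin-like glycoprotein, was at 19.8 and 14.9 CPM against 4.86 and 0.583 (2.68 ± 0.95, limma-voom adjusted p = 0.00843). Of the 23 members of the matrix list 3 were separated upward, beside 2.52% of all genes. Among them were the basement membrane genes Col4a1 and Col4a2, with 0.68 ± 0.27 and 0.58 ± 0.32 against line 650. Fibroblast markers gave no shared direction. None of 6 tested was above line 650 and all 6 above line 1270, and the summed level of their list ran from 6.48 to 218 CPM in the dysplastic arm and from 7.14 to 93.9 CPM in the other. Acta2, smooth muscle actin, was near 1 CPM in line 794, 80.5 to 192 in line 801, 35.4 and 82.7 in line 650, and 9.36 and 1.61 in line 1270. The part of such cells in the matrix values was not tested.

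Genes separated from a single baseline were also chosen by rule. Those highest relative to line 650 but not separated from line 1270 were led by Serpinb10, at 29.9 and 1.14 CPM in lines 794 and 801, 0.173 in line 650 and 0.745 in line 1270 (6.45 ± 2.33 against line 650, DESeq2 adjusted p = 0.0157). DESeq2 also called Serpinb10 against line 1270, where its libraries overlapped (4.37 ± 1.98, adjusted p = 0.0363). Tnfrsf19, a receptor of the tumour necrosis factor family, was at 119 and 24 CPM, with 4.73 in line 650 and 26.9 in line 1270 (3.92 ± 1.42 against line 650, DESeq2 adjusted p = 0.0292). Gkn1, a secreted protein of pit cells, was at 2447, 3054 and 6758 CPM in line 794, 44.7, 36.2 and 52.1 in line 801, 20.2 and 25.5 in line 650, and 1044 and 14.5 in line 1270. Its libraries in line 1270 differed far more than those of any other KO line, and it was not called against line 650 (DESeq2 adjusted p = 0.28). On the low side Sult1b1, a sulfotransferase, and Pycard, an adaptor of inflammasomes, were lower than line 650, with log2 fold changes of -2.998 ± 1.14 and -2.84 ± 1.09 without a call (DESeq2 adjusted p = 0.871 and 0.879).

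Among genes separated from line 1270 and not from line 650, Pitx1 was 32.9 and 39 CPM in lines 794 and 801, 38 CPM in line 650 and just 0.0648 in line 1270. Against line 650 its log2 fold change was -0.08 ± 1.97. Mmp7, a matrix protease, was at 45 CPM in line 801 and 1.79 in line 794, beside 2.82 in line 650 and 0.0324 in line 1270. In the other direction Isl1, an endocrine lineage factor, was 17.4 and 22.4 CPM in line 1270 and at most 0.958 CPM in the other 8 libraries. Gif, the gene of gastric intrinsic factor, was 1188 and 168 CPM in line 1270, 67 and 37.4 in line 650, 43.4, 32.9 and 29.9 in line 801, and 4.49, 1.77 and 1.71 in line 794.

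The 2 dysplastic lines were not alike in the size of these differences. Of the 133 genes called higher by DESeq2, 112 lay farther from the non-dysplastic mean in line 794 than in line 801. In 54 of them the libraries of the 2 lines did not overlap and line 794 was farther, in 5 line 801 was farther, and in 74 they overlapped. At least 4-fold apart were 23 of the 133, against 336 of all genes (2.49%), while 281 genes (2.09%) were as far apart between lines 650 and 1270. Among the 64 called lower, 50 lay farther in line 794 and 0 were 4-fold apart. Olfm4, a secreted stem cell glycoprotein named after its values were seen, shows the extreme, at 159, 199 and 105 CPM in line 794 and at most 0.446 CPM in the other 7 libraries. DESeq2 called it (adjusted p = 0.0165) although line 801 did not differ from the non-dysplastic lines, at 0.228 CPM against 0.173 and 0.227. Esam, an adhesion protein of endothelial cells, also stood out in line 794, at 126 to 183 CPM against 6.12 to 14.5 elsewhere, while the endothelial genes Pecam1 and Cldn5 were at most 1.37 and 0.085 CPM in any library. Cdh5, the cadherin of endothelial cells, moved with Esam at a far lower level, at 2.95, 1.37 and 0.456 CPM in line 794 and at most 0.203 in the other 7 libraries. Kdr, a receptor for vascular growth factors, was at 0.663, 0.0805 and 1.14 CPM in line 794 and at most 0.441 elsewhere. The part of endothelial cells in the Esam value was not tested.

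**Figure D5:**
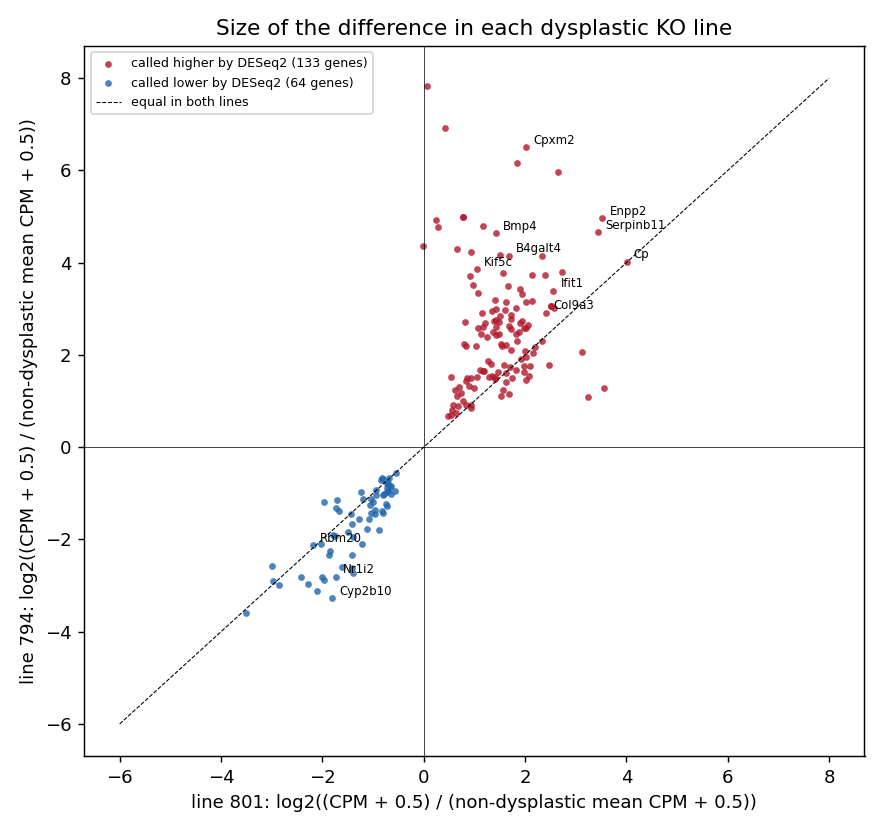
Size of the difference from the non-dysplastic mean in line 801 (x axis) and line 794 (y axis), as log2 ratios of CPM + 0.5, for the 133 genes called higher (red) and the 64 called lower (blue) by DESeq2, each point a gene. Of the 133 higher genes 112 lie above the dashed line of equal size, and the lower genes lie closer to it.

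Whether these differences depend on p53 loss was tested as the difference between dysplasia in KO and dysplasia in WT lines. EdgeR called 0 genes (241 at an unadjusted p under 0.05), DESeq2 0 (412) and limma-voom 0 (676). In WT lines alone edgeR called 0 genes (156 unadjusted), DESeq2 3 higher and 1 lower, and limma-voom 0. The median log2 fold change of the interferon list was 0.30 in WT and 1.63 in KO, and that of the NRF2 and glutathione list -0.06 and -0.60. Neither list is shown to differ between the genotypes, since no member's interaction was called. Cp had 57.5 and 44.7 CPM in the dysplastic WT lines 565 and 752 and 6.73 and 35 CPM in the non-dysplastic WT lines 300 and 1269. Ifit1 had 1.25 and 0.96 CPM against 0.429 and 0.636, all near the level of the non-dysplastic KO lines.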

How the data were processed

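The authors deposited unnormalized whole-number read counts for each gene symbol. The submitters' processing notes name bcl2fastq, STAR 2.5 and the build mm9. Annotation, counter and use of strand: not given in the sources used here. Of 24047 genes 18180 had a count. No pair of libraries of a line agreed within sampling noise (chi-square per degree of freedom 5.84 or more).

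Counts were summed per line, and filterByExpr left 13476 genes. EdgeR 4.0.16 (robust quasi-likelihood, TMM scaling, R 4.3.3) fitted 4 means, 1 for each genotype and dysplasia class (4 residual degrees of freedom), or 5 means for single baselines (3 residual degrees). DESeq2 1.42.0 on line sums and limma-voom (limma 3.58.1) on libraries with lines as correlated blocks were further tests. P-values were Benjamini-Hochberg adjusted over all genes, with a threshold of 0.05. SE is the size of a log2 fold change divided by the square root of F. At 1 CPM the smallest library holds 5.67 counts. The procedures were tested on simulated data, which held no shift by transcript length, so they were not tested under that shift.

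Members and gene lists were chosen with earlier results of these data known. The rule for named genes took Trp53, then up to 15 genes per direction called by edgeR. As there were none, it took the 12 per direction of largest log2 fold change among separated genes called by DESeq2 or limma-voom, with average log2 CPM above 2 and a log2 fold change of at least 1 in the same direction against line 650. From each list it took up to 4 separated members, or else up to 2 of the highest level. It also took up to 5 genes per direction separated from 1 baseline alone, with average log2 CPM above 2. The rule left Xist, Tsix and Y-linked genes out of all but the lists, since lines differ in sex. The genes called against line 650, and members given to explain a list, stand outside it. Alternatives were another scaling, other tests and filters, a replicate block, and leaving out lines, libraries or the shifted libraries. A few genes that these rules name, or that lists or marker sets hold, are not reported here.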

Additional observations from a re-analysis of the deposited data

Results flagged for a closer look

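In Cyp2b10, a cytochrome P450 gene, library 1270-1 stood at 28.1 CPM, far from the other 3 non-dysplastic KO libraries at 2.92 to 5.33 CPM. Its gap to the nearest of them was 0.9 of the range of that group. Of 48 groups of libraries examined for the leading genes this was the 1 set apart in this way, and chance sets apart about 1 in 20.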

How the results depend on the processing

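The edgeR count of 0 against both lines became 197 in DESeq2, 245 in limma-voom, 145 in limma-voom with a replicate block, 133 with a term for the shifted libraries and 1 with sex as a covariate. It was 0 in every fit without a line or library. Against line 650 the 0 became 34 in DESeq2 and ranged from 0 to 1 with a line or library left out. The count for the difference between genotypes was 0 in all 10 alternatives. With a line or library left out, the DESeq2 counts against both lines ranged from 18 to 610 higher and from 12 to 291 lower, those against line 650 from 8 to 201 and from 7 to 218, those of interferon genes from 1 to 22 and those of NRF2 and glutathione genes from 1 to 10. Without the shifted libraries, DESeq2 counted 305 higher and 163 lower against both lines, and 87 and 74 against line 650. With sex as a covariate it counted 308 higher. Limma-voom called 190 higher and 55 lower, and 121 and 24 with the replicate block, 106 and 27 with the term for shifted libraries, and 62 and 18 without them. Genes without overlap numbered 532, and 2567 without the shifted libraries, and such interferon genes 16 and 33. Separation is easier with fewer libraries, and the part of the shift itself was not tested. Where no value is named, the cause was not tested. Over fits that left out a line or library, 6 values reversed: the log2 fold change of Isl1 (-6.62 without line 794, 1.17 without 1270), the log2 fold change of Pla2g4c (-4.28 without 801, 0.22 without 1270), Gkn1 (6.7 without library 1270-1, -2.47 without line 794), Bpifb1 (4.62 without 1270, -0.88 without 794), Esam (3.82 without 801, -0.68 without 794) and Hnf4a (-0.32 without library 650-2, 0.05 without 650-1). A reversed value is one that changed sign from a main value more than 1 SE from 0. Of 3104 values of 115 named genes, 2936 were counted as the same. These kept their side of the threshold, and their direction or changed sign by at most 1 SE from a main value within 1 SE of 0. A further 29 changed sign by more than 1 SE from such a main value, besides the 6 reversed. As edgeR called 0 genes in the main fit, no value could lose a call. Same-numbered libraries of lines 801 and 794 deviated together (correlations 0.5, 0.64 and 0.69), but not those of every line (-0.84 to 0.69 over 13 pairs, and -0.75 to 0.84 over 24 pairs of other numbers), so the replicate numbers were not taken as pairs. With 2 lines an arm, spread between lines limits every test, and genes near 1 CPM rest on few counts.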

Other observations

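Other lists held few called members. Over all genes 52.3% lay above 0 and DESeq2 called 0.987% higher. Tnf, the inflammatory cytokine, measured 14.2, 10.6 and 14.5 CPM in line 794, 12.1, 9.7 and 12.2 in line 801, 7.92 and 8.95 in line 650, and 2.82 and 1.13 in line 1270. The arms did not overlap, but the log2 fold change was 0.55 ± 0.35 against line 650 and 2.72 ± 0.40 against line 1270 (DESeq2 adjusted p = 1 and 3.6e-07). Of 22 NF-kB and inflammatory genes 19 were above 0, with medians of 0.30 and 1.81 against these lines. The Notch ligand Dll1 was at 10.03 and 6.59 CPM in lines 794 and 801 and at 3.21 and 2.88 CPM in lines 650 and 1270 (1.45 ± 0.57, limma-voom adjusted p = 0.0464), in a list with a median of 0.32 and no other call.

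All 24 genes of glycolysis and hypoxia were above 0, with a median of 0.42 against both lines and 0.14 against line 650, and none was called or separated. Pkm, the pyruvate kinase gene, was at 3997 and 2634 CPM against 2719 and 2134. Of 23 genes of the unfolded protein and amino acid responses 19 were above 0 with a median of 0.27 and no call. Of 24 genes of cholesterol and fatty acid synthesis 20 were above 0. DNA repair genes followed the cell cycle lists, with 20 of 25 above line 650 and 3 above line 1270. Their summed level was 980 CPM in 1270-1 and 1320 in 1270-2, beside 792 to 1040 in the dysplastic libraries. Keratins gave a median of 0.30 and no call.

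Lower genes outside the lists, named after their values were seen, included Ddc, which makes dopamine and serotonin from their precursors, and Gyk, a glycerol kinase. Ddc measured 8.84, 14.3 and 9.69 CPM in line 794, 10.2, 15.1 and 12 in line 801, 70.3 and 31.4 in line 650, and 45.9 and 25.1 in line 1270. Its log2 fold change was -1.88 ± 0.33 against both lines and -2.17 ± 0.32 against line 650 (DESeq2 adjusted p = 0.000114 and 0.000139). Gyk was at 49.4 and 56.5 CPM in the dysplastic lines and 123 and 114 CPM in the others, without overlap (-1.16 ± 0.17, DESeq2 adjusted p = 7e-06). Both are named among the genes called against line 650.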
